A study of Mus musculus with 16 samples.

Results

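The insulin-like growth factor (IGF) genes examined here are 2 that encode the growth factors Igf1 and Igf2, the non-coding RNA gene H19, the receptor gene Igf1r, and the binding protein genes Igfbp2, Igfbp3, Igfbp4, Igfbp5, Igfbp6 and Igfbp7. They were chosen by gene symbol, as 10 genes beside 18194 genes measured in all. Of these 10, 9 have 1 or more probe sets with a single gene symbol, 26 probe sets together, and each was represented by its brightest. The only probe set for H19 is listed for H19 and Mir675 together, the microRNA being made from H19 RNA, so it was kept apart and is called the H19/Mir675 probe set.

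The study measured 16 expression arrays of mouse muscle and muscle cells, hybridised in 3 sets, and asked what Galgt2 does to gene expression in normal and dystrophin-deficient muscle. Galgt2 (B4galnt2) encodes a glycosyltransferase that adds a terminal sugar to surface glycans. Its transgene and its viral delivery were studied in the mdx mouse, a dystrophin-deficient model of Duchenne muscular dystrophy. The gastrocnemius, a calf muscle, was taken from male mice aged 2 months.

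The first set held 4 genotypes with 2 arrays each. Galgt2 transgenic mdx muscle lacks dystrophin, carries the transgene and comes from a C57BL/10J x C57BL/6J cross. The mdx muscle is C57BL/10J, while transgenic and wild-type muscle are both C57BL/6J. Strain and genotype therefore cannot be told apart when mdx is set against wild type, or transgenic mdx against another genotype. The second set held mdx muscle (C57BL/10J) injected with an adeno-associated virus (AAV) carrying Galgt2 and the opposite muscle injected with phosphate-buffered saline (PBS), 2 arrays each, so both of its groups lack dystrophin. The third set held 1 array each of C2CT myotubes, C2CT myoblasts, C2C12 myotubes and C2C12 myoblasts. C2C12 is a mouse myoblast line that fuses into myotubes, and C2CT is C2C12 with Galgt2 stably transfected. The labels do not give the promoter of the transgene, whether C2CT is a single clone, whether replicate arrays come from separate mice, or which AAV and PBS arrays share a mouse, so p-values measure the spread between these arrays, which may be technical.

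IGF1 and IGF2 are secreted growth factors that signal mainly through the IGF1 receptor, a tyrosine kinase that feeds the PI3K-Akt and MAP kinase pathways. In muscle they promote growth of fibres and the proliferation and differentiation of myoblasts, and IGF2 is made by myoblasts as they differentiate. The binding proteins hold IGFs in the extracellular space, where proteases such as PAPP-A release them. Igf2 and H19 are neighbouring imprinted genes, expressed from opposite parental alleles.

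Values are log2 of the deposited probe set intensity. A value of 1 on this scale is a doubling, but levels of different probe sets cannot be compared with each other, nor levels of the same probe set between array sets. Median array intensity was 57.69 to 63.95 in the first set, 25.35 to 25.71 in the second and 57.18 to 60.37 in the third. Replicate arrays correlated at 0.977 in mdx to 0.993 in AAV muscle. B4galnt2 was at 13.28 and 13.34 in transgenic mdx, 3.86 and 7.78 in mdx muscle, 13.17 and 13.32 in transgenic muscle and 4.61 and 4.94 in wild-type muscle, so mdx replicate 2 stood above mdx replicate 1 and wild type. It was at 10.54 and 10.56 in AAV muscle and 5.27 and 4.26 in PBS muscle. Dmd, the dystrophin gene, was lower in mdx than in wild type by -2.82 ± 0.20 and higher in transgenic mdx than in mdx by 1.54 ± 0.20. The summed intensity of 8 muscle fibre markers lay between 86310 and 95140 on all first-set arrays. A difference is written with its standard error from limma over 12 muscle arrays, and was called when its Benjamini-Hochberg adjusted p over 18194 genes was below 0.05.

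Only Igf2 and Igfbp3 passed this test in a muscle comparison. Igf2 was the 1 of 9 genes called in mdx against wild type, and it was higher, where 5.44% of all genes were called and 3.75% were called higher. That background held 682 higher and 308 lower genes, or 585 and 462 when arrays were shifted to the same median. Igfbp3 was the 1 of 9 called in transgenic against wild type, and it was lower, where 3.15% of all genes were called and 1.03% were called lower. It was again the 1 gene called, and lower, in transgenic mdx against mdx, where 6.08% of all genes were called and 2.11% were called lower. The same gene was the 1 called, and lower, when transgenic mdx was set against wild type, where 7.28% were called and 2.36% were called lower. No IGF gene was called in transgenic mdx against transgenic (background 0.055%), in the interaction of transgene and mdx (0.044%) or in AAV against PBS (0%). The unadjusted p was below 0.05 for 0, 2 and 2 of the 9 genes in these comparisons, in that order, and for 3.89%, 11.9% and 8.28% of all genes. With counts of 0 or 1 out of 9, the share of IGF genes called cannot be read as above or below the background. Comparisons within the first set share arrays and are not independent. The median of the 9 differences was 0.32 for mdx against wild type (0.01 over all genes), 0.22 for transgenic against wild type (-0.05) and -0.13 for transgenic mdx against mdx (-0.01). It was -0.02 for transgenic mdx against transgenic (0.07 over all genes) and 0.19 for transgenic mdx against wild type (0.01). For the interaction it was -0.36 (0.05) and for AAV against PBS 0.36 (0.03). The medians of 0.32 and -0.13 are the differences of Igfbp2 itself, which was dim in muscle. No shared direction of the IGF genes can be read from them.

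**Figure D1:**
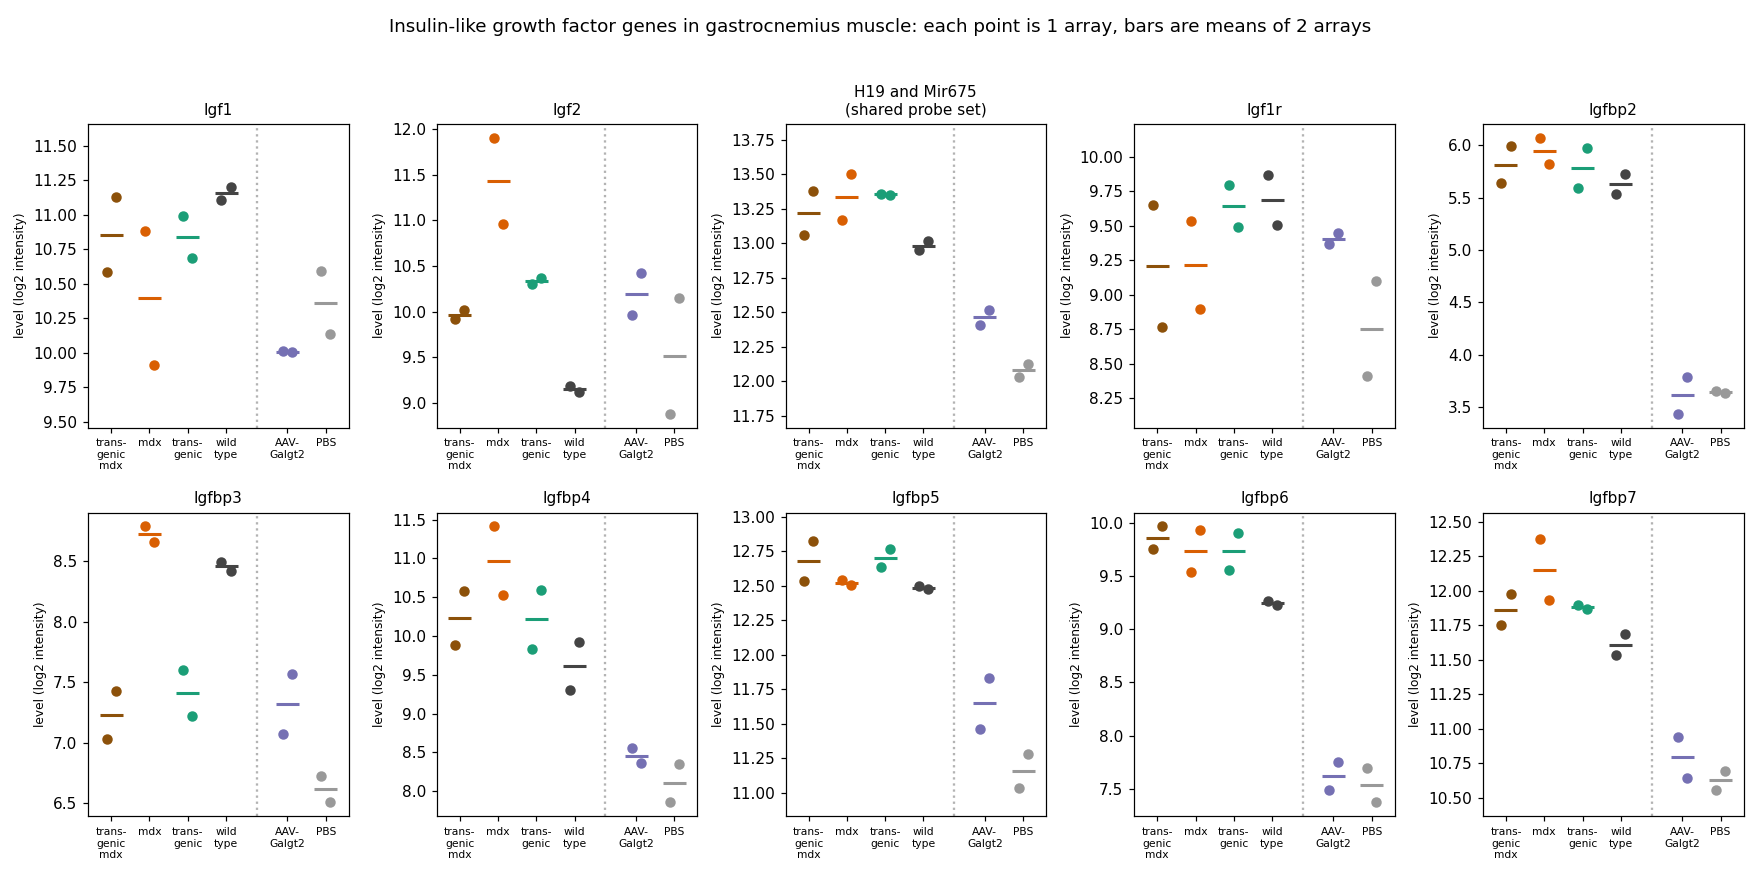
Log2 level of the IGF genes and of the H19/Mir675 probe set on each of the 12 muscle arrays, 1 point per array, with the group mean as a bar. Igf2 is highest in mdx (11.91 and 10.96) among the first-set groups, and Igfbp3 is lower in both groups that carry the transgene (7.03 to 7.60) than in mdx and wild type (8.42 to 8.79).

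The sequence windows of 3 genes are shown because Igf2 and Igfbp4 had the highest differences between mdx and wild type, while Igfbp3 set the transgenic groups apart. Each is the 250 bases before an annotated start, from RefSeq (GRCm38.p6), written 5′ to 3′ on the strand of the gene. Capitals mark matches, searched on both strands, to TATAAA, the TATA box, or CANNTG, the E-box read by myogenic factors such as MyoD. For Igf2, which has 4 listed windows, the window at chr7:142657497-142657746 (minus strand) is given. The Igfbp3 window is chr11:7213924-7214173 (minus strand) and the Igfbp4 window chr11:99040994-99041243 (plus strand).
Igf2: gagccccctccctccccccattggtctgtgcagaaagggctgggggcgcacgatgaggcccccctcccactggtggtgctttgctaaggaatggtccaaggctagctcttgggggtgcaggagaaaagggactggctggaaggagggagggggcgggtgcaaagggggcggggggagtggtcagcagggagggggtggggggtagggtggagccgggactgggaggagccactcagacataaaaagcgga
Igfbp3: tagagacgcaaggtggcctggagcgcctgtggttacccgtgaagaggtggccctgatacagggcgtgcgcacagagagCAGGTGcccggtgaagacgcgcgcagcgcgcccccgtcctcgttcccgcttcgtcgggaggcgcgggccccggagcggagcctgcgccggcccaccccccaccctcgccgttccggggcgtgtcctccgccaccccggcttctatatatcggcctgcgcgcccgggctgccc
Igfbp4: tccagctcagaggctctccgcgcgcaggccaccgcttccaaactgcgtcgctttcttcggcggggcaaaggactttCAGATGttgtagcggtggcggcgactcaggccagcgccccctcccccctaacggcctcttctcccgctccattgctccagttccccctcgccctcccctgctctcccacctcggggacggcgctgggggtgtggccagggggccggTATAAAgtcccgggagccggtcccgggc
This Igf2 window held neither motif. The Igfbp3 window held CANNTG once, 172 bases before the start. In the Igfbp4 window TATAAA lay 28 and CANNTG 174 bases before the start. Over the 13 windows of 9 IGF genes, 2 held TATAAA and 8 held CANNTG, where 12.4% and 66.2% of 32851 windows of this length held them. A match is a run of letters and not a site shown to be used.

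Igf2, the fetal IGF, was higher in mdx muscle than in the wild type. Its log2 level was 9.91 and 10.02 in transgenic mdx, 11.91 and 10.96 in mdx muscle, 10.30 and 10.37 in transgenic muscle and 9.18 and 9.12 in wild-type muscle. No array of any of the other groups of the set reached the lower mdx array, and both wild-type arrays lay below all others. Igf2 was 4.86-fold higher in mdx than in wild type (2.28 ± 0.40, limma adjusted p = 0.0119). Without wild-type replicate 1 or 2 the difference was 2.31 or 2.25. The call was lost in these 2 fits, which leave 1 wild-type array, and held in the other 21 of 23 alternative fits. In transgenic muscle Igf2 lay above wild type on both arrays, by 1.18 ± 0.40, which did not pass (adjusted p = 0.185). In transgenic mdx it lay below mdx on both arrays, by -1.47 ± 0.40 (adjusted p = 0.0585). Without mdx replicate 2 the difference was -1.94. Leaving out PBS replicate 1 or 2 left it at -1.47 and changed only its test. PBS enters this comparison only through the spread shared by all groups. Some settings that leave no single array out gave this difference a call, with adjusted p from 0.0434 to 0.0497. Most settings, like the main fit, did not. Transgenic mdx differed from wild type by 0.81 ± 0.40 (adjusted p = 0.283) and from transgenic by -0.37 ± 0.40 (adjusted p = 1).

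These 2 Igf2 differences, of transgenic from wild type and of transgenic mdx from mdx, had opposite signs, and neither passed. The difference between them, tested as an interaction, was -2.65 ± 0.57 (unadjusted p = 0.000788, adjusted p = 0.114). It did not pass the threshold over all genes. Leaving out PBS replicate 1 or 2 left the estimate at -2.65 and changed only its test. PBS enters this test only through the spread shared by all groups. A second Igf2 probe set was dim, at 3.22 to 4.65 on the first-set arrays, and its difference was 0.71 ± 0.31 between mdx and wild type and -0.75 ± 0.31 between transgenic mdx and mdx, neither called in a fit to all 45101 probe sets.

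The H19/Mir675 probe set did not pass in any muscle comparison. It was at 13.06 and 13.38 in transgenic mdx, 13.17 and 13.50 in mdx muscle, 13.36 and 13.35 in transgenic muscle and 12.95 and 13.02 in wild-type muscle. Each of the first 3 genotypes lay above both wild-type arrays, by 0.24, 0.35 and 0.37, where groups did not overlap in this direction for 27.8%, 23.7% and 20.5% of genes. In the fit to all probe sets none of these passed, with adjusted p of 0.591, 0.433 and 0.531. Its interaction was -0.49 ± 0.28 (adjusted p = 0.616). Mature miR-675 was not measured by this probe set as such, and levels of H19 and of the miR-675 precursor cannot be told apart with it.

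Igf1, the growth factor that fibres and immune cells make in adult muscle, did not pass in any muscle comparison through its brightest probe set. It was at 10.58 and 11.13 in transgenic mdx, 10.88 and 9.91 in mdx muscle, 10.99 and 10.69 in transgenic muscle and 11.11 and 11.20 in wild-type muscle. Both mdx arrays lay below wild type, and they differed from each other by more than any other replicate pair of the set. Igf1 differed between mdx and wild type by -0.76 ± 0.32 (adjusted p = 0.212). Without mdx replicate 1 this became -1.24. Transgenic differed from wild type by -0.32 ± 0.32 (adjusted p = 0.73) and transgenic mdx from mdx by 0.46 ± 0.32 (adjusted p = 0.481), a value that was -0.03 without mdx replicate 2.

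The 4 Igf1 probe sets disagreed in mdx muscle. Between mdx and wild type 2 were positive and 2 negative, from -0.76 to 0.89. Probe set 1452014_a_at was at 9.01 and 9.51 in transgenic mdx, 10.16 and 10.17 in mdx muscle, 9.11 and 8.91 in transgenic muscle and 9.23 and 9.31 in wild-type muscle. Both mdx arrays stood above all others of the set here, the reverse of the brightest probe set. Fitted with all probe sets, this one gave 0.89 ± 0.21 for mdx against wild type (adjusted p = 0.051) and -0.90 ± 0.21 for transgenic mdx against mdx (adjusted p = 0.0455), the second being called where 3.96% of all probe sets were. The direction of Igf1 in mdx muscle is therefore not settled by these arrays, and which transcripts each probe set reads was not tested. In transgenic against wild type the 4 probe sets were all negative, and none was called.

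**Figure D2:**
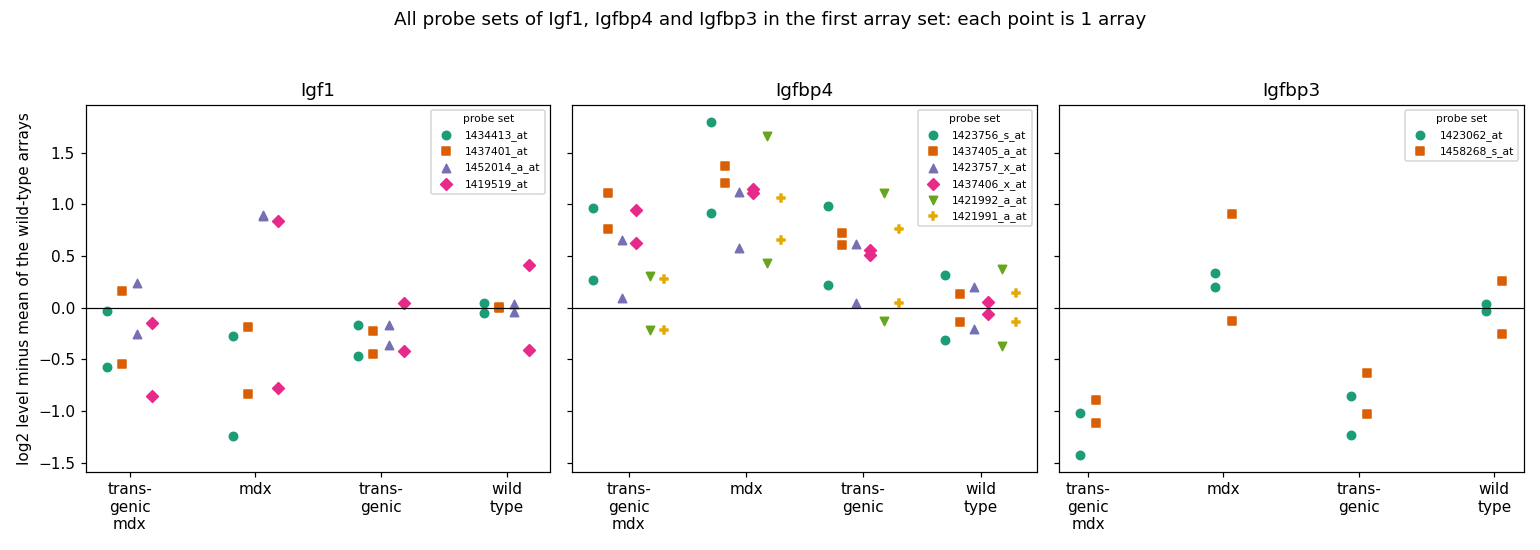
Log2 level minus the mean of the wild-type arrays for every probe set of Igf1, Igfbp4 and Igfbp3 in the first array set, 1 point per array and 1 symbol per probe set. The mean mdx points of the 4 Igf1 probe sets lie from -0.76 to 0.89, while those of the 6 Igfbp4 probe sets are all above 0 (0.85 to 1.36) and both Igfbp3 probe sets are below 0 on every array with the transgene.

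Igf1r, the receptor, was not called in any muscle comparison. Its level was 9.65 and 8.77 in transgenic mdx, 9.54 and 8.90 in mdx muscle, 9.80 and 9.49 in transgenic muscle and 9.87 and 9.50 in wild-type muscle. The groups of the first set overlapped throughout, with differences of -0.47 ± 0.35 in mdx against wild type and -0.04 in transgenic against wild type. The replicates of transgenic mdx and mdx were each spread more widely than the group means differed. Of its 5 probe sets, 1452982_at stood apart at -1.03 ± 0.36 in mdx against wild type (adjusted p = 0.164). It was at 6.87 and 5.50 in mdx and 7.22 and 7.20 in wild-type muscle, so the difference came mostly from mdx replicate 2.

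In the first set Igfbp3, the main carrier of IGFs in the circulation, was lower in muscle with the Galgt2 transgene, whether or not dystrophin was present. Its log2 level was 7.03 and 7.43 in transgenic mdx, 8.79 and 8.66 in mdx muscle, 7.60 and 7.23 in transgenic muscle and 8.49 and 8.42 in wild-type muscle. All 4 arrays with the transgene lay below all 4 without it. Transgenic mdx and mdx also differ in strain. In transgenic mdx Igfbp3 was 2.82-fold lower than in mdx, a difference of -1.49 ± 0.24 (adjusted p = 0.00774). This call held in 23 of 23 alternative fits, with differences from -1.70 to -1.29. Against wild type, transgenic mdx differed by -1.23 ± 0.24 (adjusted p = 0.013). This call was lost in 4 of 23 alternatives, and the difference kept its sign in all 23, from -1.43 to -1.02. Among the 4 were leaving out wild-type replicate 1 or 2, or transgenic mdx replicate 1. Transgenic muscle was 2.06-fold lower than wild type, a difference of -1.04 ± 0.24 (adjusted p = 0.0468). That call was lost in 14 of 23 alternatives, with adjusted p from 0.0516 to 0.248, among them leaving out any wild-type, mdx, transgenic, AAV or PBS array. The difference kept its sign in all 23, from -1.23 to -0.85.

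The second Igfbp3 probe set, 1458268_s_at, showed the same order of groups. It was at 6.09 and 6.31 in transgenic mdx, 8.11 and 7.08 in mdx muscle, 6.18 and 6.57 in transgenic muscle and 6.95 and 7.46 in wild-type muscle. Its difference between transgenic mdx and mdx was -1.40 ± 0.33 (adjusted p = 0.0446 over all probe sets), and that between transgenic and wild type -0.83 ± 0.33 (adjusted p = 0.322), where 1.85% of all probe sets were called. Without the transgene, mdx and wild type differed in Igfbp3 by 0.27 ± 0.24 (adjusted p = 0.62). The interaction was -0.45 ± 0.34 (adjusted p = 0.676), so a different transgene effect in mdx and in wild-type muscle was not shown.

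Endothelial markers, like Igfbp3, were lower with the transgene in both backgrounds. Between mdx and wild type neither the endothelial markers nor Igfbp3 had a call. The median of the markers there was -0.05, with a lower sum in mdx, and Igfbp3 differed by 0.27 ± 0.24. The summed intensity of the 7 endothelial genes was 2591 to 3747 in transgenic mdx, 5246 to 5275 in mdx, 3873 to 4214 in transgenic and 6617 to 6997 in wild-type muscle. All 7 had negative differences between transgenic mdx and mdx, with a median of -0.95, and 1 of them, Esam, an endothelial adhesion molecule, was called at -1.24 ± 0.22 (adjusted p = 0.0119). All 7 differences between transgenic and wild type were negative too, with a median of -0.60 and none called. The smooth muscle and pericyte list had a median of -0.82 in transgenic mdx against mdx. There 1 of 6 was called lower, where 2.11% of all genes were. The part of these cells in the Igfbp3 result was not tested. In bulk muscle, fewer cells of a type and less RNA per cell cannot be told apart. Transgenic mdx replicate 2 also had the largest 3′ minus 5′ difference of the Gapdh control probe sets, 1.23 against 0.18 to 0.48 on the other arrays of the set. The lowest endothelial and smooth muscle sums of the set, 2591 and 3015, were on that array too. Without that array the Igfbp3 difference between transgenic mdx and mdx was -1.70.

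Igfbp4, a binding protein cleaved by PAPP-A, lay above wild type in mdx muscle on all 6 of its probe sets, and the difference was called on 2 of them. Its brightest probe set was at 9.88 and 10.58 in transgenic mdx, 11.41 and 10.53 in mdx muscle, 9.83 and 10.60 in transgenic muscle and 9.30 and 9.93 in wild-type muscle. Only mdx stood clear of wild type here, by 1.36 ± 0.39 (adjusted p = 0.0715), which did not pass. Probe set 1437405_a_at had closer replicates, at 10.35 and 10.70 in transgenic mdx, 10.79 and 10.96 in mdx muscle, 10.32 and 10.20 in transgenic muscle and 9.73 and 9.46 in wild-type muscle. Every array of the first 3 genotypes lay above wild type on it. In the fit to all probe sets it was called at 1.29 ± 0.23 in mdx against wild type (adjusted p = 0.0181), where 3.35% of all probe sets were called, and at 0.93 ± 0.23 in transgenic mdx against wild type (adjusted p = 0.0448), where 4.91% were. Another probe set, 1437406_x_at, was called at 1.13 ± 0.20 in mdx against wild type (adjusted p = 0.02). Between transgenic mdx and mdx the brightest probe set differed by -0.74 ± 0.39 (adjusted p = 0.317), and the interaction was -1.34 ± 0.55 (adjusted p = 0.36).

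Igfbp7, an IGFBP-related protein of vessel walls and matrix, and Igfbp6, which prefers IGF2, were not called. Igfbp7 was at 11.75 and 11.98 in transgenic mdx, 12.37 and 11.93 in mdx muscle, 11.90 and 11.87 in transgenic muscle and 11.53 and 11.69 in wild-type muscle. Both mdx arrays exceeded wild type, by 0.54 ± 0.22 (adjusted p = 0.185). Igfbp6 was at 9.75 and 9.97 in transgenic mdx, 9.54 and 9.94 in mdx muscle, 9.56 and 9.91 in transgenic muscle and 9.26 and 9.23 in wild-type muscle. Wild type was the lowest group for both genes. The Igfbp6 differences from wild type were 0.62 ± 0.23 in transgenic mdx, 0.49 ± 0.23 in mdx and 0.49 ± 0.23 in transgenic muscle (adjusted p = 0.145, 0.262 and 0.376).

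Igfbp5, the binding protein induced in differentiating myoblasts, was nearly level across genotypes on its brightest probe set. It was at 12.54 and 12.82 in transgenic mdx, 12.54 and 12.51 in mdx muscle, 12.64 and 12.77 in transgenic muscle and 12.50 and 12.47 in wild-type muscle. The difference between mdx and wild type was 0.04 ± 0.21 (adjusted p = 0.953), and changed sign when arrays were shifted to the same median or when the other probe set was used. That other probe set, 1422313_a_at, had widely spread replicates, such as 10.80 and 9.22 in transgenic mdx and 11.20 and 12.03 in transgenic muscle. Igfbp2, a binding protein of fetal tissues, was dim in muscle, from 5.54 to 6.07 in the first set, where array medians were 5.85 to 6.00, and no statement about its direction can rest on it.

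**Figure D3:**
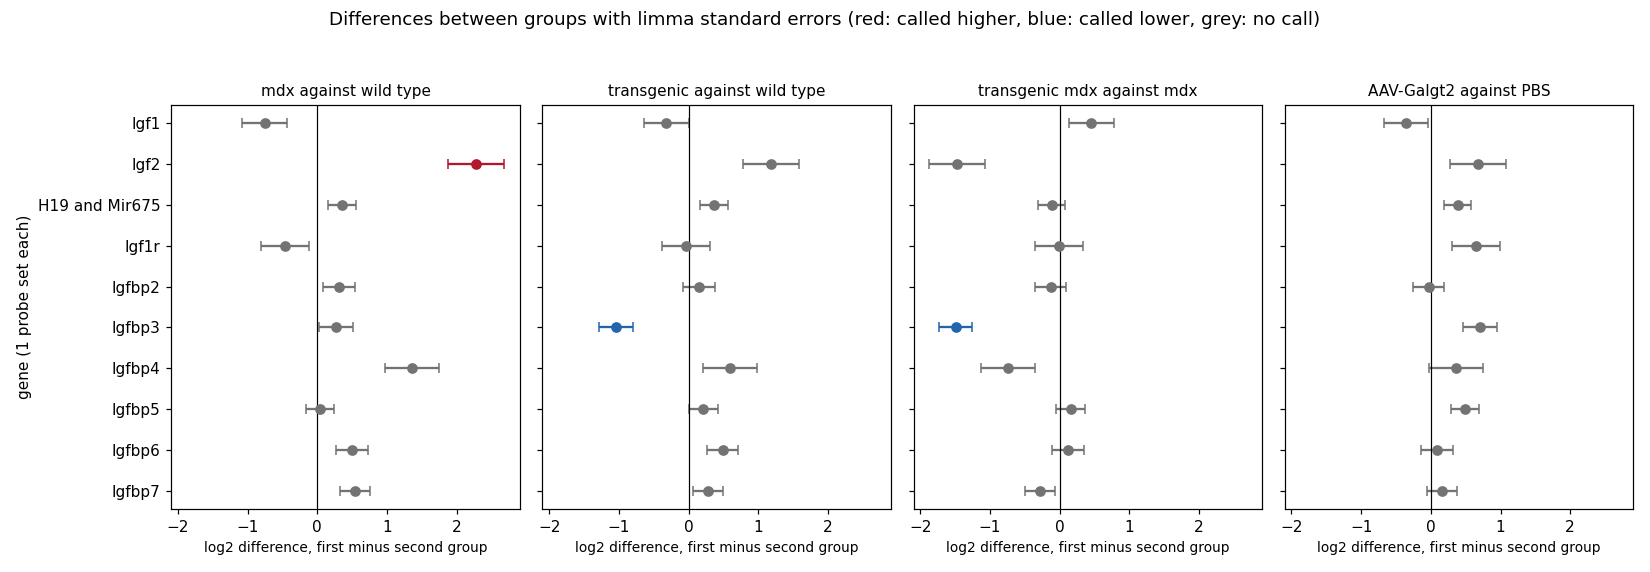
Log2 difference (first minus second group) of the 9 IGF genes and the H19/Mir675 probe set in 4 muscle comparisons, with bars of 1 standard error from limma. Red and blue mark genes called higher and lower, which are Igf2 between mdx and wild type (2.28 ± 0.40) and Igfbp3 between transgenic and wild type (-1.04 ± 0.24) and between transgenic mdx and mdx (-1.49 ± 0.24).

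Separation of the groups without overlap was common. In mdx against wild type 7 of 9 genes were higher and 1, Igf1, was lower without overlap, where 23.7% and 21.6% of all genes were. Igf1r was the only one that overlapped. The 7 include Igfbp2, which was dim, and Igfbp5, whose difference of 0.04 ± 0.21 changed sign with its other probe set. Igf1 was higher without overlap on probe set 1452014_a_at. In transgenic against wild type 4 were higher and 2 lower, with 20.5% and 27.1% of all genes. In transgenic mdx against mdx 2, Igf2 and Igfbp3, were lower, as were 22.3% of all genes. In AAV against PBS 4 of 9 were higher and 1 lower, with 25.3% and 18.6% of all genes. Most of the IGF genes counted here did not pass the test.

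Virus-delivered Galgt2 gave no called IGF gene. Igfbp3 was at 7.08 and 7.57 in AAV muscle, against 6.72 and 6.51 in PBS muscle. Both AAV arrays lay above PBS, by 0.71 ± 0.24, which did not pass (unadjusted p = 0.0143, adjusted p = 0.465). The second Igfbp3 probe set differed by 0.30 ± 0.33 (adjusted p = 0.925 over all probe sets). Both are opposite in sign to the Igfbp3 differences with the transgene. Igfbp5 was at 11.46 and 11.83 in AAV muscle and 11.04 and 11.28 in PBS muscle, a difference of 0.49 ± 0.21 (adjusted p = 0.564). Igf1r was at 9.37 and 9.45 in AAV muscle and 8.41 and 9.10 in PBS muscle (0.65 ± 0.35, adjusted p = 0.663). Both AAV arrays lay above both PBS arrays for these 3 genes, and none of the differences passed.

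Igf1 lay lower in AAV muscle on all 4 of its probe sets, without passing. The brightest was at 10.01 and 10.00 in AAV muscle and 10.59 and 10.14 in PBS muscle (-0.36 ± 0.32, adjusted p = 0.828). Igf2 was at 9.96 and 10.42 in AAV muscle and 8.88 and 10.15 in PBS muscle. These groups overlapped, and the PBS replicates differed from each other by more than the group means (0.68 ± 0.40, adjusted p = 0.708). The H19/Mir675 probe set was at 12.41 and 12.52 in AAV muscle and 12.03 and 12.13 in PBS muscle (0.38 ± 0.20, adjusted p = 0.764). Igfbp4, at 8.55 and 8.36 in AAV muscle and 7.85 and 8.35 in PBS muscle, separated by the narrowest margin and differed by 0.36. Igfbp7 and Igfbp6 differed by 0.16 and 0.09. Adipocyte markers, with 4 of 6 genes measured, were all negative between AAV and PBS muscle, with a median of -1.49 and none called. Their summed intensity was 5286 and 5784 in AAV muscle, against 8657 and 6858 in PBS muscle. Of 7 endothelial markers 6 were positive (median 0.32), with sums of 2773 to 3107 in AAV muscle and 2342 to 2606 in PBS muscle. All 5 tendon markers were positive (median 0.37), with sums of 9529 and 11640 in AAV muscle and 5606 and 6199 in PBS muscle. None of either list was called, and the part of these cells in the IGF values was not tested. Igfbp2, at 3.43 to 3.79 on these arrays, lay below the array medians of 4.66 to 4.68.

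Of 11 partners and proteases of the IGFs, 2 were called in each of 3 comparisons and 0 in the other 4. In mdx against wild type 1 was called higher and 1 lower, with a median of -0.27, where 5.44% of all genes were called. Adam12, a protease that cleaves IGFBP3 and IGFBP5 and is made by regenerating muscle, was at 9.06 and 8.50 in mdx and 6.45 and 6.28 in wild type (2.42 ± 0.50, adjusted p = 0.0233). Insr, the insulin receptor, which also binds IGF2, was at 9.46 and 9.06 in mdx and 10.41 and 10.74 in wild type (-1.32 ± 0.22, adjusted p = 0.00976). Both mdx arrays stood clear of wild type for each gene. In transgenic mdx, Insr stood at 10.24 and 10.31 and was higher than in mdx by 1.02 ± 0.22 (adjusted p = 0.0252).

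Pappa, the protease that cleaves IGFBP4, was dim in muscle without the transgene. It was at 6.15 and 6.41 in transgenic mdx, 4.73 and 4.83 in mdx muscle, 6.19 and 5.92 in transgenic muscle and 5.38 and 5.26 in wild-type muscle, where array medians were 5.85 to 6.00. The mdx and wild-type arrays thus lay below the array medians, so the size of a difference from them is not settled. The test gave 1.50 ± 0.24 between transgenic mdx and mdx (adjusted p = 0.00712) and 0.96 ± 0.24 between transgenic mdx and wild type (adjusted p = 0.0354). Stc2, which inhibits this protease, was at 7.98 and 8.06 in transgenic mdx and 6.68 and 6.03 in wild type (1.66 ± 0.33, adjusted p = 0.0142). Pappa and Insr were the 2 genes of this list called in transgenic mdx against mdx, with a list median of 0.01 and 6.08% of all genes called. Pappa and Stc2 were the 2 called in transgenic mdx against wild type, with a list median of -0.19 and 7.28% of all genes called. None was called in transgenic against wild type.

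The growth hormone axis, which drives Igf1 expression in liver and muscle, had 1 of 7 genes called, and lower, in each of 4 comparisons. All genes were called at 5.44% in mdx against wild type, 3.15% in transgenic against wild type, 6.08% in transgenic mdx against mdx and 7.28% in transgenic mdx against wild type. Jak2, the kinase of the growth hormone receptor, was at 10.24 and 10.43 in mdx muscle, 10.77 and 10.10 in transgenic muscle and 11.62 and 11.51 in wild-type muscle. Its differences from wild type were -1.23 ± 0.23 in mdx (adjusted p = 0.0164) and -1.13 ± 0.23 in transgenic muscle (adjusted p = 0.0273). Stat5b, a transcription factor of this axis, was at 9.54 and 10.14 in transgenic mdx, 11.23 and 11.21 in mdx and 11.25 and 11.68 in wild-type muscle. Transgenic mdx lay below both, by -1.38 ± 0.31 against mdx (adjusted p = 0.0296) and -1.63 ± 0.31 against wild type (adjusted p = 0.0109). The receptor gene Ghr was not called in any muscle comparison.

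Signalling genes downstream of the receptor mostly did not pass. Of 23 measured among 26 listed, 1 was called higher and 2 lower in mdx against wild type, where 5.44% of all genes were called. Akt1, a kinase activated by the IGF1 receptor, was at 10.23 and 10.41 in mdx and 9.44 and 9.22 in wild type (0.99 ± 0.22, adjusted p = 0.0283). Sos1, an activator of Ras, and Pik3ca, a catalytic subunit of PI3K, differed by -1.12 ± 0.20 and -0.86 ± 0.21 (adjusted p = 0.0132 and 0.0462). None was called in transgenic against wild type or in transgenic mdx against mdx. Ddit4, an inhibitor of mTOR signalling, was the only one called in transgenic mdx against wild type (-1.13 ± 0.28, adjusted p = 0.0398). Igf2 mRNA binding proteins, 2 of 3 measured, had no call in any muscle comparison.

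Imprinted genes other than Igf2 and H19 numbered 14. Between mdx and wild type 12 of 14 differences were positive, with a median of 0.40 beside 0.01 over all genes. None was called higher and 1 lower, where 5.44% of all genes were called. In transgenic against wild type 2 were called higher, where 3.15% of all genes were called. Peg3 was at 12.15 and 12.36 in transgenic and 10.11 and 11.03 in wild-type muscle (1.69 ± 0.36, adjusted p = 0.031). Peg10 was at 8.60 and 8.51 in transgenic and 6.14 and 5.50 in wild-type muscle (2.73 ± 0.52, adjusted p = 0.0189). Both were called in transgenic mdx against wild type too. The differences were 1.85 ± 0.36 for Peg3 (adjusted p = 0.0121) and 1.97 ± 0.52 for Peg10 (adjusted p = 0.0488). The wild-type Peg10 levels lay near the medians of those arrays, 5.93 and 5.85, so the size of its differences is not settled. Slc38a4, an amino acid transporter gene, was lower in mdx than in wild type by -0.96 ± 0.22 (adjusted p = 0.0319) and in transgenic mdx than in wild type by -1.48 ± 0.22 (adjusted p = 0.00276). No pathway gene of these lists was called in the interaction, in transgenic mdx against transgenic or in AAV against PBS.

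Markers of regenerating fibres and of macrophages shared the direction of Igf2 in some muscle comparisons and not in others. Between transgenic mdx and mdx, where Igf2 differed by -1.47, the regenerating fibre median was 0.02, with 4 genes positive and 4 negative. Between AAV and PBS, where Igf2 differed by 0.68, the macrophage median was -0.15, with 4 genes positive and 6 negative. Of 8 regenerating fibre genes, 7 were called higher in mdx than in wild type and 7 in transgenic than in wild type, with medians of 3.56 and 2.70. Of all genes, 3.75% were called higher in the first comparison and 3.15% in either direction in the second. The summed intensity of the 8 genes was 10850 to 13360 in transgenic mdx, 10490 to 11220 in mdx, 9261 to 10970 in transgenic and 1756 to 2252 in wild-type muscle. The Igf2 order differed, since transgenic mdx lay below mdx in Igf2 but not in these markers. Of 10 macrophage genes, 6 were called higher in mdx than in wild type (3.75% of all genes). In transgenic mdx 3 were called lower than in mdx (2.11% of all genes). Called higher than in wild type were also 2 in transgenic and 5 in transgenic mdx muscle. Of all genes, 3.15% and 7.28% were called in either direction there. The sum of the 10 was 13860 to 14330 in transgenic mdx, 26620 to 30840 in mdx, 10680 to 14440 in transgenic and 7469 to 7537 in wild-type muscle, and 1 of the 10 was below the array median on each muscle array. Macrophage genes had 2 calls, both lower, in the interaction, where 0.044% of all genes were called. Lgals3, a macrophage lectin, gave -4.70 ± 0.61 there (adjusted p = 0.0374), beside the -2.65 of Igf2. In the second set the regenerating fibre sum was 4111 to 4243 in AAV and 1447 to 3613 in PBS muscle, and the macrophage sum was 10500 to 12970 in AAV and 10810 to 15570 in PBS muscle. The part of either cell population in the Igf2 values was not tested. Fibroblast genes had no call in any muscle comparison.

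Some IGF genes varied together over the 12 muscle arrays, once each array set was centred on its own mean. Igfbp4 and Igfbp7 had r = 0.91, Igf2 and Igfbp4 r = 0.846, and Igf2 and Igfbp7 r = 0.829. At the other end were Igf1 with the H19/Mir675 probe set at -0.596 and Igf1 with Igf2 at -0.554. Both hold for the brightest Igf1 probe set, while probe set 1452014_a_at gave 0.0792 with the H19/Mir675 probe set and 0.536 with Igf2. These values describe 12 arrays that share amplification and processing within a set. Among 9097 genes above the median level, those closest to Igf2 were Prkcb (0.962), P2rx4 (0.958) and Pld3 (0.953). Those closest to Igf1 were Etfbkmt (0.982), Calcrl (0.955) and Lrch2 (0.954). Those closest to Igfbp7 were Casp8 (0.928), Arhgef1 (0.926) and Fstl1 (0.921). For the H19/Mir675 probe set they were Ttll12 (0.916), Stat5a (0.913) and Mcm3ap (0.907).

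In the cell lines the untransfected pair went against its labels. The 8 muscle fibre genes summed to 9863 on the array labelled C2C12 myotube and to 30810 on the array labelled C2C12 myoblast, and 7 of 8 were at least 2-fold lower on the first. Cycling genes summed to 7646 on the array labelled C2C12 myotube, against 4677 on that labelled C2C12 myoblast. The transfected pair ran the other way, with fibre genes at 34920 in C2CT myotubes and 16200 in C2CT myoblasts. Directions that involve the C2C12 arrays therefore hold for the arrays as labelled only, and are also given with these 2 labels turned, an alternative chosen after seeing the data. With 1 array per condition there is no test and no replicate check. B4galnt2 was at 9.76 and 10.82 on the C2CT myoblast and myotube arrays and at 4.58 and 4.81 on the C2C12 arrays with those labels.

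Igfbp2 spread most widely among the IGF genes in these cells. It was at 9.94 on the C2CT myotube array, 10.91 on the C2CT myoblast array, 11.05 on the array labelled C2C12 myotube and 6.47 on the array labelled C2C12 myoblast. The last array stood apart, 21.7-fold below C2CT myoblasts and 24.0-fold below the array labelled C2C12 myotube. In C2CT against C2C12 myoblasts 4 of the 9 genes were at least 2-fold apart, where 6.24% of all genes were. Besides Igfbp2 these were Igf1, higher by 1.20, Igfbp3, higher by 1.11, and Igf2, which differed by -1.38. Between myotubes 2 of 9 were at least 2-fold apart (background 9.26%), Igfbp4 at -2.04 and Igfbp2 at -1.12. With the labels turned, C2CT myoblasts are set against the array labelled C2C12 myotube, and 2 of 9 were at least 2-fold apart (background 6.18%), Igfbp3 at 2.50 and Igfbp4 at -1.41. There Igfbp2 differed by -0.14, Igf1 by 0.67 and Igf2 by -0.42. C2CT myotubes against the array labelled C2C12 myoblast also gave 2 of 9 (background 3.18%), Igfbp2 at 3.47 and Igfbp3 at -1.22. The direction of Igfbp2 between C2CT and C2C12 is therefore not settled.

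Igfbp3 was at 7.22 in C2CT myotubes and 9.55 in C2CT myoblasts, which was lower in the myotubes, a 5.03-fold difference and the only one of the 9 genes past 2-fold in that pair, where 5.59% of all genes were. It was at 7.05 on the array labelled C2C12 myotube and 8.44 on the array labelled C2C12 myoblast, which had the higher fibre genes, so with the labels turned the C2C12 pair runs the other way. In the C2C12 pair 3 of 9 were at least 2-fold apart (background 8.36%), with Igfbp2 and Igfbp4 higher by 4.59 and 1.94 and Igfbp3 lower on the array labelled myotube. Igf2 was at 10.38 in C2CT myotubes, 9.97 in C2CT myoblasts, 10.39 on the array labelled C2C12 myotube and 11.36 on that labelled C2C12 myoblast, the highest of the 4 on an array with high fibre genes. The H19/Mir675 probe set ranged only from 12.11 to 12.20 over the 4 arrays, Igfbp5 from 12.57 to 12.83 and Igf1r from 11.26 to 11.76.

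**Figure D4:**
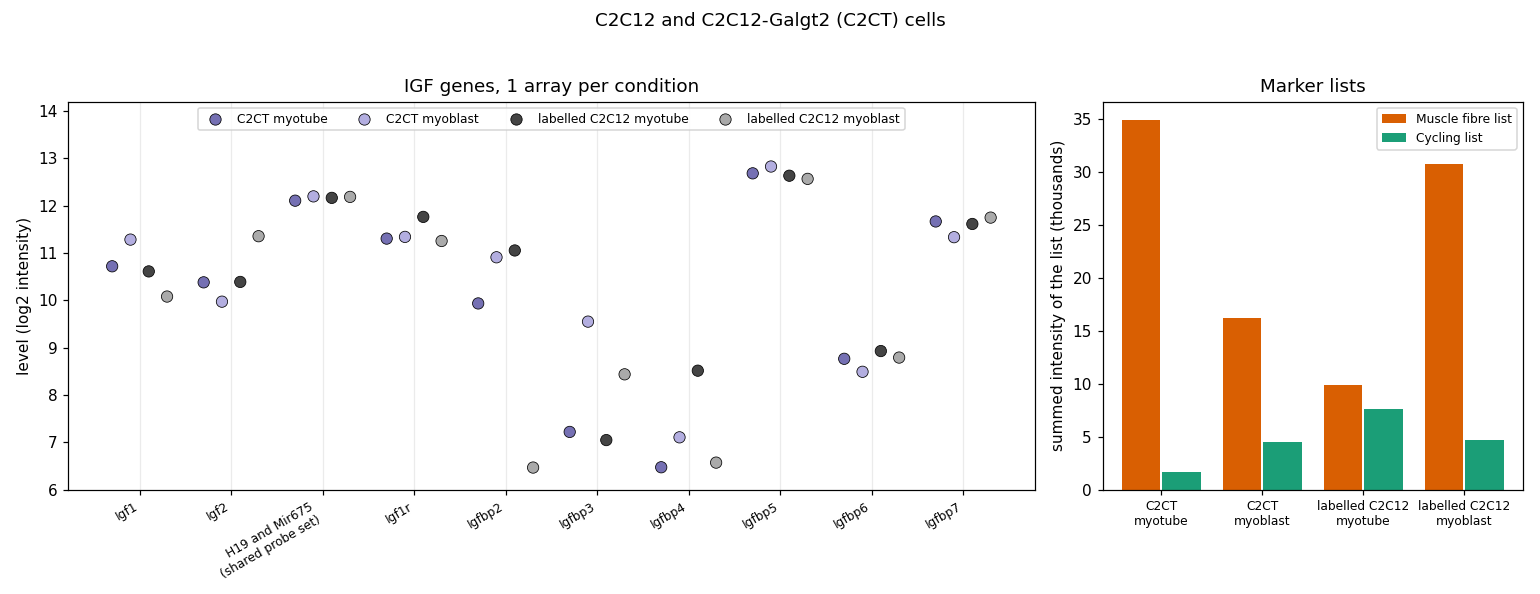
Log2 level of the IGF genes and of the H19/Mir675 probe set on the 4 cell line arrays, 1 point per array, with the arrays named as labelled (left panel), and the summed intensity of the muscle fibre and cycling lists (right panel). Igfbp2 is at 6.47 on the array labelled C2C12 myoblast and at 9.94 to 11.05 on the other 3.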

How the data were processed

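Expression was measured on 16 single-channel mouse arrays. The authors deposited 1 linear intensity per probe set, made with GCOS and RMA per the submitters' processing notes, without versions. Whether the array sets were normalized together is not given in the sources used here, so levels were compared within sets. Per the labels' protocols, 25 ng of gastrocnemius RNA was amplified with the Ovation Biotin system.

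The intensities were taken to log2. Of 45101 probe sets, 34958 carry 1 gene symbol, 932 several and 9211 none in the supplied platform annotation, and symbols checked by Entrez ID changed in 0 cases. Each gene was represented by its brightest probe set over the muscle arrays, or over the cell line arrays for those, where 1 value was empty. limma 3.58.1 (R 4.3.3) fitted 6 group means to 12 muscle arrays, with eBayes, two-sided tests and Benjamini-Hochberg adjustment over 18194 genes at 0.05. Further probe sets, and the H19/Mir675 one, were read from an added fit to all probe sets, chosen after seeing the data. The fit was tested on simulated data. Cell line arrays have no replicates and were compared by a fold of 2. Arrays have no read depth, and with 2 per group their number limits the precision.

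All IGF genes are named in each comparison. From each of 18 lists up to 4 called genes were eligible to be named. The genes, the lists and the tests were chosen with earlier results of these data known. Alternatives were fits to arrays of the same set, a block on replicate number, other scalings, an offset of 32, other probe set choices, moderated variance with trend, array weights and leaving out each array. Replicate numbers are not stated to pair arrays, and correlations of the replicate difference between groups of the first set ran from -0.439 to 0.542. They were not used as pairs.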

Additional observations from a re-analysis of the deposited data

Results flagged for a closer look

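Igf2 was singled out because arrays with the transgene lay above those without it in 1 background and below them in the other, though neither difference passed (adjusted p = 0.185 and 0.0585). Both transgenic arrays (10.30 and 10.37) lay above both wild-type arrays (9.18 and 9.12), and both transgenic mdx arrays (9.91 and 10.02) lay below both mdx arrays (11.91 and 10.96). The difference between the 2 was -2.65 ± 0.57 on the log2 scale, with an adjusted p of 0.114 in limma's interaction test over all genes. The cause was not tested, and strain differs between these genotypes.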

How the results depend on the processing

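No called IGF gene in muscle changed sign under any alternative. Of the single-gene results under other settings, 803 kept their side of the threshold, 6 passed that had not and 5 no longer passed. The 803 include changes in size. They also include uncalled changes of sign smaller than the replicate spread or, in the cell lines, below 2-fold. A further 9 changed sign uncalled by more than that spread, or crossed 2-fold in the cell lines. The last 7, all with the C2C12 labels turned, changed sign with a 2-fold difference before or after. With an array left out, 731 kept their side in the same sense and 4 changed sign uncalled by more than the spread. The rest crossed the threshold, in fits that leave 1 array in a group. Igf2 in mdx against wild type kept its call in 21 of 23 alternatives, and Igfbp3 in 9 for transgenic against wild type, 23 for transgenic mdx against mdx and 19 for transgenic mdx against wild type. With the replicate number as a block, which the labels do not support as a pairing, all-gene counts were 488 for mdx against wild type, 204 for transgenic against wild type, 344 for transgenic mdx against mdx, 0 for transgenic mdx against transgenic, 623 for transgenic mdx against wild type and 0 for the interaction. The block left 0 IGF genes called for either transgenic genotype against wild type, that is 0 and 0 (Igfbp3, adjusted p = 0.133 and 0.0534). Fits within the array set gave 365 genes for transgenic against wild type, 643 for transgenic mdx against mdx, 3 for transgenic mdx against transgenic and 842 for transgenic mdx against wild type. Array weights gave 594 for mdx against wild type, 397 for transgenic mdx against mdx and 3 for the interaction. The interaction count of 8 became 15 with arrays shifted to the same median, 13 with quantile normalization, 3 without genes below the median level, 18 with the offset, 5 with the mean of probe sets and 20 with trend and robust moderation, and transgenic mdx against transgenic gave 0 without genes below the median level. The count of IGF genes called was 2 in mdx against wild type with the mean of probe sets or without _s and _x probe sets (Igfbp4 added), 0 in transgenic against wild type in the same-set fit, with trend and robust moderation and in the fit to all probe sets, 2 in transgenic mdx against mdx in the same-set fit, without genes below the median level and with trend and robust moderation (Igf2 added), and 2 in transgenic mdx against wild type without _s and _x probe sets (Igfbp4 added). In C2CT myotubes against myoblasts 2 genes passed 2-fold with arrays shifted to the same median (Igfbp2 added). With the C2C12 labels turned, C2CT against C2C12 myoblasts gave 2 genes, with Igfbp2 at -0.14 and Igfbp4 at -1.41, myotubes gave Igfbp2 at 3.47 and Igfbp3 at -1.22, and C2C12 myotubes against myoblasts gave Igfbp2 at -4.59, Igfbp3 at 1.39 and Igfbp4 at -1.94. Leaving out 1 array in turn gave all-gene counts of 132 to 1338 for mdx against wild type, 184 to 653 for transgenic against wild type, 311 to 1290 for transgenic mdx against mdx, 4 to 22 for transgenic mdx against transgenic, 434 to 1575 for transgenic mdx against wild type, 0 to 142 for the interaction and 0 to 158 for AAV against PBS. IGF genes called ranged from 0 to 2, 0 to 1, 1 to 2, 0 to 0, 0 to 1, 0 to 1 and 0 to 0 in the same order. The causes of these shifts were not tested. Limits are the 2 arrays per group, dim probe sets such as Igfbp2, and strain differences that follow genotype.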
